A study of Rattus norvegicus with 12 samples.

Results

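The miR-34 and miR-449 family was followed in small RNA libraries of primary cortical neurons. The members were the names of the count tables that read miR-34a, miR-34b, miR-34c, miR-449a or miR-449c, with either arm, and there were 10 of them among 685 miRNA names. The neurons came from Sprague Dawley rats at embryonic day 17 and were plated at 100000 cells per square centimetre. At 10 days in vitro they received lentivirus with a non-targeting short hairpin RNA (shNTC), an shRNA against Stau2 (shStau2) or an shRNA against Pum2 (shPum2), and they were lysed at 14 days in vitro. Each group had 4 libraries, numbered 1 to 4 as biological replicates. All 3 groups carried a virus and an shRNA, and untransduced neurons were not analysed here. Stau2 encodes the protein Staufen2 and Pum2 encodes Pumilio 2, both RNA-binding proteins of neuronal RNA granules. The shNTC group was the reference and shPum2 a further control for effects of an active shRNA. The depletion of Stau2 or Pum2 itself was not analysed here.

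The miR-34 genes are direct transcriptional targets of the tumour suppressor p53, and their products repress mRNAs of the cell cycle and of survival. The miR-449 genes carry the same seed, the bases that pair with target mRNAs, and are best known from multiciliated epithelia, where they act with miR-34b and miR-34c in the formation of cilia. In the brain miR-34a is known from neurons, and multiciliated cells line the ventricles and form the choroid plexus. A miRNA hairpin yields 2 strands, 5p from its first arm and 3p from its second, and usually only 1 of them is loaded into Argonaute in quantity.

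The sequences are shown because they divide the family by seed. Mature strands are written 5′ to 3′ with the seed, bases 2 to 8, in capitals. They were taken from RefSeq by miRNA name, and 10 of the 10 names matched. The 5p strands shared 1 seed, GGCAGUG, which no other of the 693 rat mature names in RefSeq had.
miR-34a-5p: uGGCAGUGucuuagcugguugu
miR-34b-5p: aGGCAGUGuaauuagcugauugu
miR-34c-5p: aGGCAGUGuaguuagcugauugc
miR-449a-5p: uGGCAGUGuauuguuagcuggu
miR-449c-5p: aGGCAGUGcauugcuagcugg
The 3p strands had 4 different seeds, and only those of miR-34b and miR-34c were the same.
miR-34a-3p: aAUCAGCAaguauacugcccua
miR-34b-3p: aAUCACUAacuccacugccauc
miR-34c-3p: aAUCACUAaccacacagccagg
miR-449a-3p: cAGCUAACaugcaacugcucuc
miR-449c-3p: uAGAACUUcgucccaac

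Close relatives could have exchanged reads in the authors' assignment. With positions counted from 1 at the 5′ end, miR-34b-5p differed from miR-34c-5p by A11G and U23C. The 5p strand of miR-449a differed from that of miR-449c over 21 bases by U1A, U9C and U14C. The 3p strands of miR-34b and miR-34c differed at 5 of 22 bases and miR-34a-5p from miR-449a-5p at 7 of 22.

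The hairpins come from 3 loci, given here in assembly GRCr8 of RefSeq, while the deposited counts were made on Rnor 6.0. Mir34a lies alone at chr5:165815952-165816053 on the plus strand, within the span of an unnamed long non-coding RNA. Mir34b (chr8:60306609-60306692) and Mir34c (chr8:60306091-60306167) lie on the minus strand with 441 bases between them. Both are within the span of the protein-coding gene Hoatz and next to Btg4. Mir449c (chr2:46402375-46402473) and Mir449a (chr2:46403910-46404000) lie on the plus strand with 1436 bases between them, within the span of another long non-coding RNA. Whether the hairpins sit in exons or introns of these genes was not analysed here.

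The hairpins of the neighbours miR-34b and miR-34c, and that of miR-449c, are shown because the counts of their arms differed. The annotated mature strands are in capitals.
Mir34b: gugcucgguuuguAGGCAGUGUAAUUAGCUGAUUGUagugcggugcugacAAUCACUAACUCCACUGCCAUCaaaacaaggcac
Mir34c: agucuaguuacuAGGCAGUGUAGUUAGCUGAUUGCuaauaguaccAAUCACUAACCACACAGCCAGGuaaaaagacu
Mir449c: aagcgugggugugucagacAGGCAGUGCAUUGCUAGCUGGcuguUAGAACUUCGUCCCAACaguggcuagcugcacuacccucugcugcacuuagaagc
In Mir449c the annotated 3p strand was 17 bases long and began 4 bases after the 5p strand, with 38 bases of hairpin behind it. In the other 4 hairpins between 10 and 22 bases lay between the strands. Of 263 rat hairpins with 2 annotated strands in RefSeq, the median distance was 16 bases and only Mir449c had 4 or fewer.

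Libraries held between 3836349 and 5415763 counts in total, and the 10 members took between 0.258 and 0.465% of the miRNA counts. The 8 neuron markers examined, led by miR-9a-5p and miR-128-3p, summed to 279700 to 345200 CPM, counts scaled to a common library size. Markers of other cell types were present at lower sums, given with the results they touch. Levels here are such CPM, scaled by the trimmed mean of M-values (TMM), as mean ± SD with n = 4 per group. They are shares of a library, so fewer cells of a type and less of a miRNA per cell cannot be told apart.

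By far the most abundant member was miR-34a-5p, the guide strand of Mir34a, which ranked 47 among the 685 miRNA names. In shNTC it stood at 2212, 2330, 2496 and 2558 CPM in replicates 1 to 4. In shStau2 it stood at 2359, 2308, 2415 and 1928 CPM, and in shPum2 at 2148, 2048, 2383 and 1841 CPM. The groups overlapped, and the highest library was 1.39 times the lowest. The next was miR-449a-5p, the main strand of the miR-449 locus, at rank 77.

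For miR-449a-5p the replicates 1 to 4 stood at 604, 1497, 1207 and 485 CPM in shNTC. They stood at 764, 1559, 889 and 520 CPM in shStau2 and at 1159, 1299, 1675 and 735 CPM in shPum2. All groups overlapped, replicate 4 was the lowest of each group, and the highest library had 3.46 times the lowest. The other miR-449 guide strand, miR-449c-5p, had 18.2 CPM on average over the 12 libraries.

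From the miR-34b and miR-34c locus, miR-34c-5p stood at 163, 279, 176 and 131 CPM in replicates 1 to 4 of shNTC. It stood at 149, 228, 162 and 93.8 CPM in shStau2 and at 160, 153, 168 and 87.1 CPM in shPum2. Replicate 4 was the lowest in each group here too. The 3p strand miR-34b-3p stood at 96.8, 168, 73.1 and 74.3 CPM in shNTC. Its shStau2 libraries had 97.8, 173, 71.0 and 87.8 CPM and its shPum2 libraries 82.5, 146, 70.8 and 86.9 CPM. Its 3 libraries of replicate number 2 lay above all 9 others and its 3 libraries of number 3 below all 9 others.

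Lower members were miR-34c-3p with 12.8 CPM over the 12 libraries, miR-34b-5p with 8.73 CPM and miR-449a-3p with 5.54 CPM. The order in the means was miR-34a-5p, miR-449a-5p, miR-34c-5p, miR-34b-3p, miR-449c-5p, miR-34c-3p, miR-34b-5p and miR-449a-3p. The spreads of neighbours overlapped for miR-34c-5p and miR-34b-3p (87.1 to 279 against 70.8 to 173 CPM), for miR-449c-5p and miR-34c-3p (5.60 to 32.8 against 7.35 to 19.7 CPM), and among the 3 lowest. The lowest library of miR-34a-5p, with 1841 CPM, was above the highest of miR-449a-5p, with 1675 CPM. Ligation and amplification can favour some sequences, so levels of different miRNAs are compared only as counted.

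The 2 remaining names, miR-34a-3p and miR-449c-3p, were at the edge of detection and did not pass the filter on low counts. In total miR-34a-3p had 72 counts over the 12 libraries and 0 in 4 of them. These were the 3 libraries of number 4 and shStau2 replicate 3, while the other 8 held 6 to 13 counts. The strand miR-449c-3p had 34 counts in all, 8 to 11 in each library of number 1, 4 in shStau2 replicate 2 and 0 in the other 8. A listed 0 may not be a count of 0: libraries listed 41 to 46 names at 0 but only 0 to 7 names with 1 or 2 counts. Of the 83 names with a 0 in some library, 71 were at 0 in all 3 libraries of a replicate number.

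**Figure D1:**
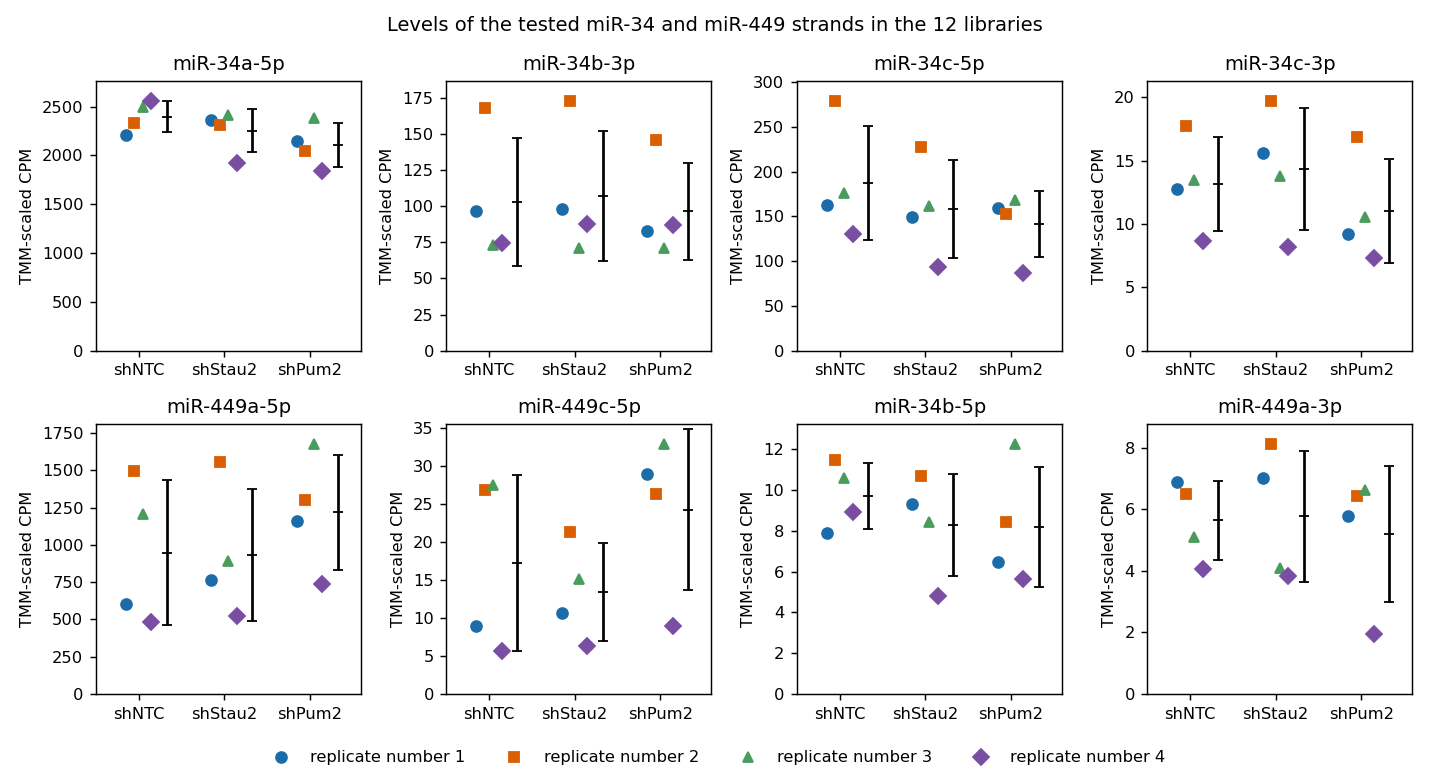
TMM-scaled CPM (vertical axes, from 0) of the 8 tested strands in each of the 12 libraries, by group, with marker and colour for the replicate number and mean ± SD (n = 4) beside each group. The groups overlap in each panel, and the libraries of number 4 are the lowest for miR-34c-5p, miR-34c-3p, miR-449c-5p and miR-449a-3p.

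Strands with the shared seed summed to 2552 to 4271 CPM per library. Of this sum miR-34a-5p made up 55.8 to 80.2%, miR-449a-5p 15.2 to 39.2% and miR-34c-5p 3.25 to 6.73%. The 5p strands of miR-449c and miR-34b stayed below 1% each, with highest shares of 0.825 and 0.287%. In shPum2 miR-449a-5p contributed 34.1% ± 5.11 of the seed's counts, against 25.6% ± 9.58 in shNTC and 26.7% ± 7.67 in shStau2 (SD, n = 4), with overlapping ranges. The stacked bars show the wider range of miR-449a-5p beside that of miR-34a-5p.

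**Figure D2:**
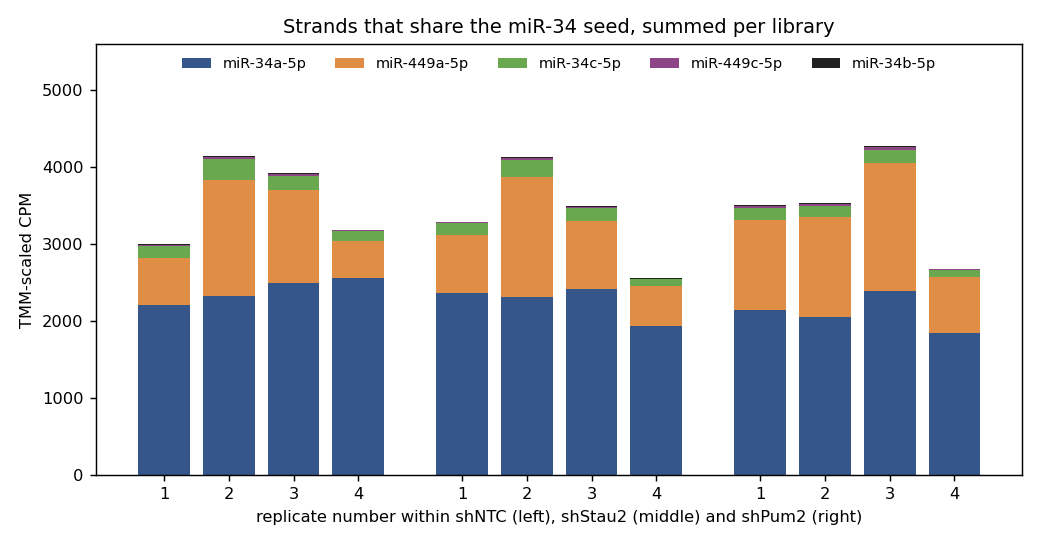
TMM-scaled CPM (vertical axis) of the 5 strands with seed GGCAGUG, stacked for each library, with replicate numbers on the horizontal axis within the 3 groups. The miR-34a-5p block stays between 1841 and 2558 CPM while that of miR-449a-5p ranges from 485 to 1675 CPM.

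The 2 neighbouring hairpins miR-34b and miR-34c used opposite arms. From miR-34c, 92.7% of the counts over all libraries were of the 5p strand (8826 against 695 counts), and per library the share lay between 90.1 and 94.5%. From miR-34b only 7.96% were of the 5p strand (475 against 5491 counts), with 5.18 to 14.7% per library. As the 5p strands differ at 2 bases only, some miR-34b-5p reads could be counted under miR-34c-5p or the reverse, and this was not tested. The 3p strands differ at 5 bases and had 5491 counts for miR-34b and 695 for miR-34c. The main product of miR-34b as counted thus carried the seed AUCACUA and not the seed of miR-34a.

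For the other hairpins the 5p strand was the main product. It made up 99.9% of the miR-34a counts (121899 against 72) and 99.5% of the miR-449a counts (56144 against 300). For miR-449c it made up 96.7% (996 against 34), and the annotated 3p strand is the short stretch beside the loop shown above. The balance of arms was tested for the 3 hairpins with a mean of at least 10 counts for both strands, as the log2 ratio of 5p to 3p counts with 0.5 added to each.

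The arm ratio of miR-34c was 3.66, 3.97, 3.70 and 3.90 in shNTC and 3.24, 3.52, 3.54 and 3.50 in shStau2, on the log2 scale. These 2 groups did not overlap, and the shPum2 libraries spanned both with 4.09, 3.18, 3.97 and 3.55. How many hairpins outside the family separate shStau2 from shNTC in this way was not analysed, so the separation is not read as particular to miR-34c. The mean in shStau2 was 0.35 lower than in shNTC (exact permutation p = 0.0286, two-sided, the smallest that 4 against 4 libraries allow). A single arm test at this smallest p cannot pass after adjustment over the 9 arm tests (adjusted p = 0.257), so the adjusted value decides nothing here. The ratio was lower in shStau2 in each of the 4 replicate numbers. That test exchanged labels freely, although the numbers pair the libraries. With labels exchanged within the numbers, 4 pairs cannot give a p under 0.05, so the paired test decides nothing either. For miR-34b the group means were -3.32 in shNTC, -3.65 in shStau2 and -3.55 in shPum2. For miR-449a they were 7.24, 7.27 and 7.92. None of the other 8 arm tests had an exact permutation p under 0.05, and their adjusted p lay between 0.514 and 0.943.

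**Figure D3:**
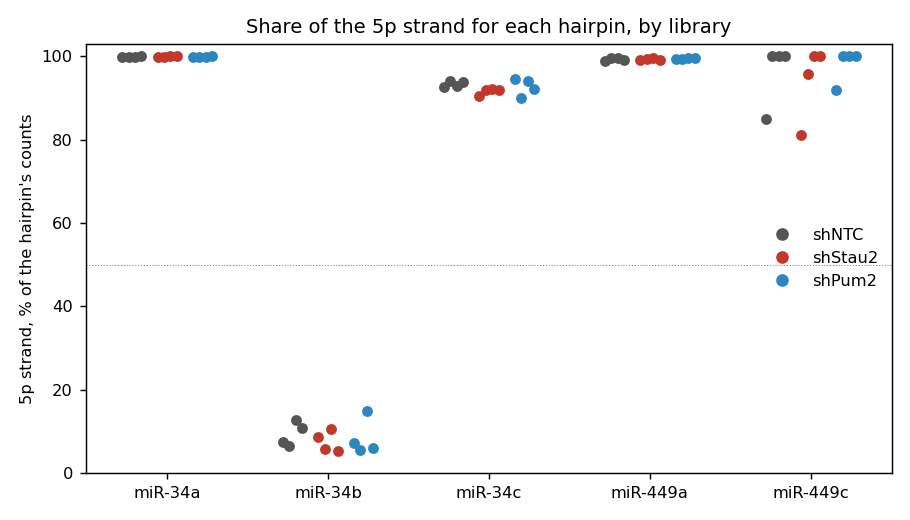
Share of the 5p strand in the counts of both strands of a hairpin (vertical axis, percent) for each of the 12 libraries, coloured by group. The miR-34b libraries lie between 5.18 and 14.7% and those of miR-34c between 90.1 and 94.5%. The miR-449c shares rest on few 3p counts.

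Against the non-targeting control, shStau2 addressed the effect of targeting Stau2. Of the 8 members tested 0 passed in edgeR's quasi-likelihood test, where 2 of all 628 miRNAs (0.318%) did. An unadjusted p under 0.05 was reached by 71 of the 628 and by 0 members. The p53 target miR-34a-5p was at 2252 ± 221 CPM in shStau2 against 2399 ± 158 in shNTC. The log2 fold change was -0.09, with SE 0.10 and adjusted p = 0.792. The members' log2 fold changes ran from -0.37 for miR-449c-5p to 0.12 for miR-34c-3p, the former from -0.69 to -0.056 when a single library was left out, with a median of -0.06, and the median over all miRNAs tested was 0.00. With the replicate number as a block 0 of 8 passed as well, while 39 of 628 miRNAs (6.21%) did, 2.39% higher and 3.82% lower. The smallest p of a member was then that of miR-34c-5p, at 158 ± 55.1 CPM against 187 ± 64.1. It had a log2 fold change of -0.26, with SE 0.12 and adjusted p = 0.205. It was lower in shStau2 in 4 of 4 pairs of the same number.

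The second shRNA that targets a gene, shPum2, was set against the same shNTC libraries. Without a block 0 of 8 members passed and 0 of 628 miRNAs did (0%). An unadjusted p under 0.05 was reached by 9 of the 628 and by 0 members, and DESeq2 called 0. With the block 0 of 8 members and 1 of 628 miRNAs (0.159%) passed, and 4 members and 46 miRNAs in all had an unadjusted p under 0.05. The 4, picked by this p, pointed in different directions. Log2 fold changes were 0.46 for miR-449a-5p (SE 0.19, adjusted p = 0.601) and 0.56 for miR-449c-5p (SE 0.23, adjusted p = 0.601). They were -0.20 for miR-34a-5p (SE 0.08, adjusted p = 0.568) and -0.38 for miR-34c-5p (SE 0.12, adjusted p = 0.417). The direction did not go by locus for all members. The other strand of the miR-449a hairpin, miR-449a-3p, was at -0.12 (SE 0.23, adjusted p = 0.920). The remaining members were miR-34b-3p at -0.07, miR-34b-5p at -0.24 and miR-34c-3p at -0.27.

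Within replicate numbers, miR-449a-5p in shPum2 was 1.92, 0.868, 1.39 and 1.52 times its level in shNTC for numbers 1 to 4. For miR-449c-5p the ratios were 3.26, 0.979, 1.196 and 1.58. Number 2 was the exception for both, since it was below 1 there and above 1 in the other 3. Each number was left out in turn in the fit with the block. For miR-449a-5p the log2 fold change was 0.33 without number 1, 0.68 without 2, 0.47 without 3 and 0.42 without 4. For miR-449c-5p it was 0.22, 0.81, 0.73 and 0.55 in the same order. A member passed only where number 2, the pair of opposite direction, was left out. The adjusted p of miR-449a-5p was then 0.00382, against 0.601 with all numbers and 0.675 without number 1. Leaving out that pair favours the direction of the others, so this pass is not taken as a change. The fit without number 2 called 2 of 626 miRNAs (0.319%), the other being miR-33-5p, known to repress p53. For miR-34a-5p and miR-34c-5p the level in shPum2 was lower in 4 of 4 pairs, by factors of 0.720 to 0.971 and 0.549 to 0.980. These values depended on single numbers too: with the block miR-34c-5p had a log2 fold change of -0.20 without number 2, and miR-34a-5p had -0.10 without number 4.

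Between the 2 gene-targeting shRNAs, 0 of 8 members passed in edgeR's test, where 3 of 628 miRNAs (0.478%) did. An unadjusted p under 0.05 was reached by 59 of the 628 and by 0 members. With the block 0 of 8 members passed and 25 of 628 miRNAs (3.98%) did, 1.59% higher and 2.39% lower in shStau2. With it 3 members and 124 miRNAs in all had an unadjusted p under 0.05. The member nearest the threshold was miR-449c-5p, at 13.3 ± 6.45 CPM in shStau2 and 24.2 ± 10.6 in shPum2. With the block the difference was -0.88 on the log2 scale, with SE 0.24 and adjusted p = 0.0676, and it was lower in shStau2 in 4 of 4 pairs. For miR-449a-5p the value was -0.45 (SE 0.19, adjusted p = 0.221) and for miR-34c-3p it was 0.38 (SE 0.15, adjusted p = 0.143).

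Leaving out numbers 1 to 4 in turn with the block gave log2 fold changes of -0.41, -0.69, -0.31 and -0.43 for miR-449a-5p in shStau2 against shPum2. For miR-449c-5p they were -0.69, -1.14, -0.79 and -0.94. Both passed only without number 2 (adjusted p = 0.000854 and 0.0113), beside 51 of 626 miRNAs (8.15%, with 2.72% higher and 5.43% lower). Number 2 was the pair in which miR-449a-5p was higher in shStau2 and miR-449c-5p differed least, so these passes are not taken as changes either. In shStau2 against shNTC without number 2, 0 of 8 members passed and 23 of 626 miRNAs (3.67%, with 0.319% higher and 3.35% lower) did. Leaving out number 1, 3 or 4 in place of 2 gave no call of a member in any of the 3 comparisons, and neither did leaving out a single library without the block.

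**Figure D4:**
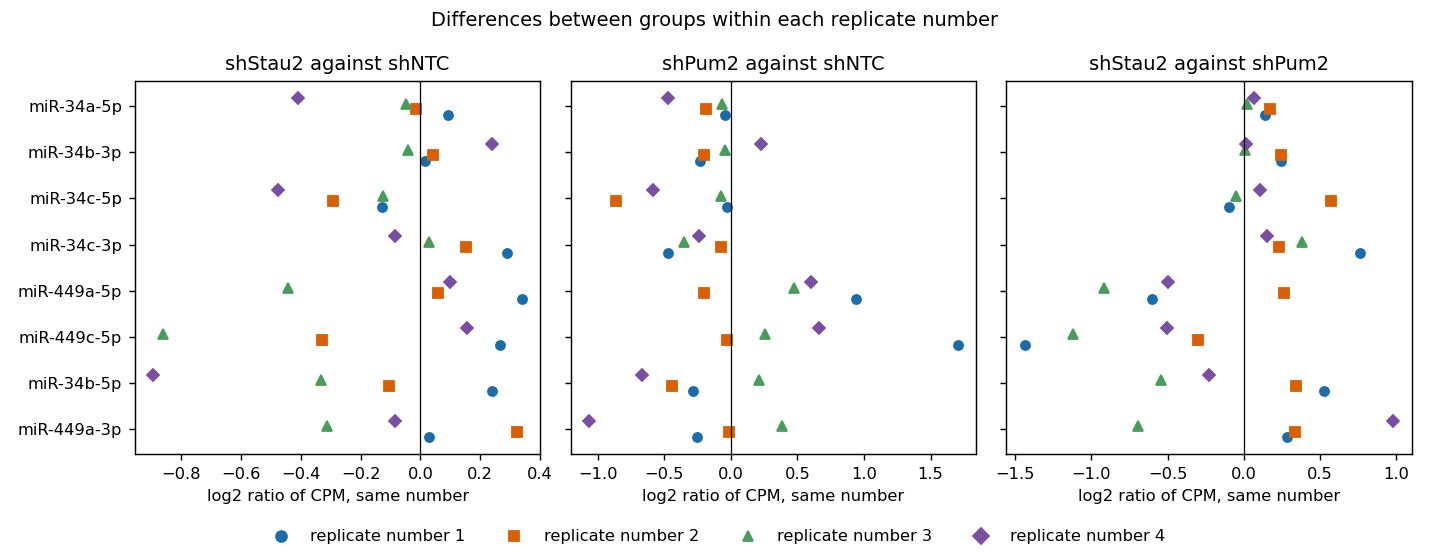
Log2 ratio of CPM between 2 groups within each replicate number (horizontal axes) for the 8 tested strands, in the 3 comparisons, with 0 as the vertical line. In shPum2 against shNTC the points of miR-449a-5p and miR-449c-5p lie above 0 for numbers 1, 3 and 4 and just below it for number 2.

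The ratio of miR-449a-5p to miR-34c-5p within a library needs no scaling between libraries. It was picked after its values were seen, so it is given without a test. It stood at 3.71, 5.37, 6.84 and 3.71 in replicates 1 to 4 of shNTC and at 5.13, 6.84, 5.49 and 5.54 in shStau2. In shPum2 it stood at 7.27, 8.48, 9.98 and 8.44. The 4 libraries of shPum2 lay above the 8 others, though each of the 2 strands alone overlapped between the groups. How many other pairs of miRNAs separate shPum2 in this way was not analysed. Within replicate numbers shPum2 had 1.46 to 2.27 times the ratio of shNTC, number 2 included with 1.58 times, because miR-34c-5p was lower there.

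Most members varied more between replicate numbers than between shRNA groups, with miR-34a-5p as the exception. A test of the number was added after the counts were seen, in the same edgeR fit with group and number. It called 6 of the 8 tested members, where 164 of all 628 miRNAs (26.1%) were called. These were miR-34b-3p (adjusted p = 5.74e-07), miR-34c-5p (adjusted p = 0.000143), miR-34c-3p (adjusted p = 0.000495), miR-449c-5p (adjusted p = 0.00242), miR-449a-5p (adjusted p = 0.00543) and miR-449a-3p (adjusted p = 0.025). All 6 come from the locus of miR-34b and miR-34c or from the miR-449 locus, so they are not independent of each other. By its F value miR-34b-3p ranked 3 among the 628. The exceptions were miR-34b-5p (adjusted p = 0.0765) and miR-34a-5p (adjusted p = 0.28). Without number 4 the test called only miR-34b-3p and miR-34c-3p of the 8 (16.8% of all miRNAs), and without number 1, 2 or 3 it called the same 6.

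The number took 95.6% of the sum of squares of log2 CPM for miR-34b-3p, and the shRNA group 1.29%. For miR-34c-3p the number took 82.4%, and for miR-34c-5p, miR-449a-5p, miR-449c-5p and miR-449a-3p it took 71.0 to 74.7%. Over all miRNAs tested the median was 44.3%. For miR-34a-5p number and group took 30.8 and 30.9%. The SD of log2 CPM over the 12 libraries was 0.15 for miR-34a-5p, 0.63 for miR-449a-5p and 0.90 for miR-449c-5p, against a median of 0.25 over all miRNAs tested. The last ranked 9 among the 628 by this SD.

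**Figure D5:**
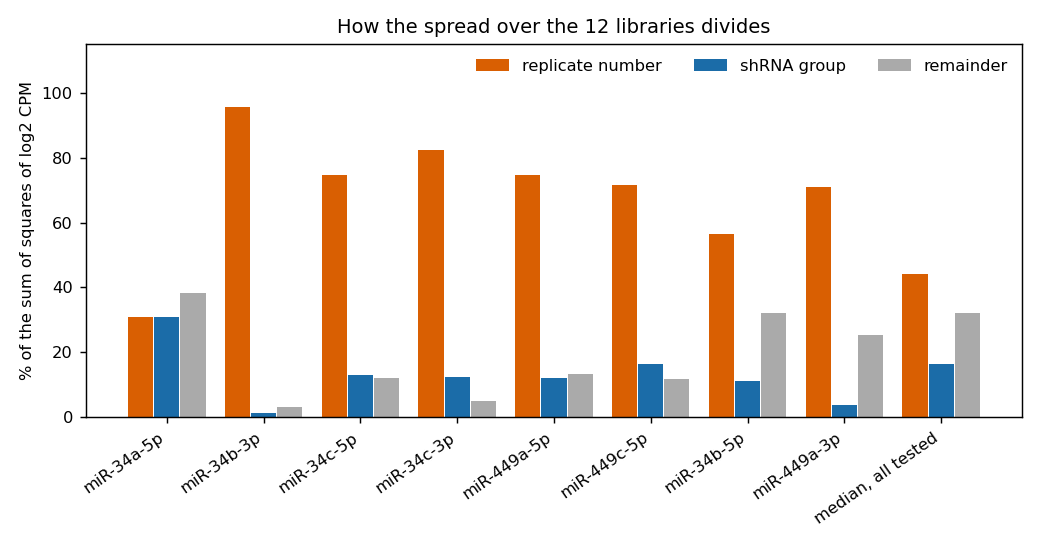
Share of the sum of squares of log2 CPM over the 12 libraries (vertical axis, percent) that goes with the replicate number, the shRNA group and the remainder, for each tested strand and as the median over all 628 miRNAs tested. The number takes 95.6% for miR-34b-3p and 30.8% for miR-34a-5p, against a median of 44.3%.

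The loci did not follow the numbers in the same way. Averaged over the 3 libraries of each number, miR-34b-3p stood at 92.4, 162, 71.6 and 83.0 CPM for numbers 1 to 4, and miR-34c-5p at 157, 220, 169 and 104 CPM. For miR-449a-5p the averages were 842, 1452, 1257 and 580 CPM, and for miR-449c-5p 16.1, 24.8, 25.1 and 6.90 CPM. Number 2 was high for all 4 of these, number 3 was high for the miR-449 strands but lowest for miR-34b-3p, and number 4 was lowest for the other 3. For miR-34a-5p the averages were 2240, 2229, 2431 and 2109 CPM.

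Likeness was measured as Pearson's r of log2 CPM over the 12 libraries, for members and other miRNAs with a mean of at least 10 CPM, so that each member was compared with 442 miRNAs outside the family and 5 within it. Libraries of a number resemble each other, so these coefficients are a description without a p. The neighbours miR-449a-5p and miR-449c-5p were each other's closest miRNA, with r = 0.96, and r = 0.90 after the mean of each number was removed. For the 5p and 3p strands of miR-34c r was 0.81, and 0.16 after removal of the number means. For miR-34b-3p and miR-34c-5p, from the shared locus, r was 0.53 and then 0.06. Between miR-34a-5p and miR-34c-5p r was 0.61 and then 0.77, and between miR-34a-5p and miR-449a-5p 0.20 and then -0.31. For miR-34c-3p r was 0.50 and then -0.84 with miR-449c-5p, and 0.58 and then -0.70 with miR-449a-5p. Not every pair of members is listed. Differences between the shRNA groups remain in the values after removal of the number means.

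Likeness outside the family is given as r and then r after removal of the number means. By the first r, miR-34a-5p was most like miR-19b-3p (0.87, then 0.86), miR-598-3p (0.81, then 0.76) and miR-532-5p (0.80, then 0.76). For miR-34b-3p these were miR-1956-5p (0.94, then 0.53), miR-3552 (0.93, then 0.69) and miR-1249 (0.93, then 0.47). The miRNA miR-375-3p was nearest to miR-34c-5p (0.84, then 0.40), miR-34c-3p (0.85, then 0.04) and miR-449a-5p (0.72, then 0.09). The next for miR-34c-5p were miR-378a-3p (0.83, then 0.44) and miR-3068-3p (0.79, then 0.70). For miR-34c-3p they were miR-374-5p (0.85, then 0.89) and miR-339-5p (0.82, then 0.55). For miR-449a-5p they were miR-490-3p (0.68, then 0.48) and miR-148a-5p (0.67, then 0.55). For miR-449c-5p the nearest were let-7i-3p (0.75, then 0.62), miR-490-3p (0.71, then 0.62) and miR-152-3p (0.70, then 0.54).

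Other miRNAs that p53 is known to induce, through transcription or processing, were taken as a list of 20 that holds no family member. Of these 18 were in the tables and 14 were tested, and 0 of 14 passed in any comparison, with or without the block. Their median log2 fold change without the block was -0.01 in shStau2 against shNTC, 0.04 in shPum2 against shNTC and -0.01 in shStau2 against shPum2. The most abundant were miR-16-5p, at 32650 ± 2637 CPM in shNTC and 33900 ± 4453 in shStau2, and miR-22-3p, at 1047 ± 98.0 and 1028 ± 105 CPM. With replicate number 8 of these 14 differed, where 26.1% of all miRNAs did. Of 6 miRNAs known to repress p53, 0 passed without the block. With it miR-125b-5p rose in shStau2, where 2.39% of all miRNAs rose against shNTC and 1.59% against shPum2. Its log2 fold change was 0.25 against shNTC, with adjusted p = 0.0147, and 0.23 against shPum2, with adjusted p = 0.0292. It was the most abundant of the 6, at 124800 ± 10750 CPM in shNTC and 147800 ± 7667 in shStau2. The next was miR-30d-5p, at 6614 ± 444 and 7476 ± 203 CPM. With replicate number 1 of these 6 differed, miR-504.

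Since miR-34b, miR-34c and miR-449 are known from ciliated and choroid epithelium, 8 markers of choroid epithelium were set beside them. Of the 7 in the tables none was at 0 in all libraries, and miR-204-5p made up most of their sum. It averaged 1487 ± 330 CPM in the shNTC libraries, 1677 ± 483 with shStau2 and 1457 ± 294 with shPum2. The other 6 averaged 2.31 to 23.0 CPM, the highest being miR-211-3p. The sum lay between 1275 and 2009 CPM for shNTC, 1392 and 2446 for shStau2, and 1314 and 1942 for shPum2. Over the libraries of number 2 it was 1942 to 2446 CPM, above the 9 others at 1275 to 1618 CPM, as for miR-34b-3p. The sum of number 3, where miR-449a-5p was high, was not above the rest with 1275 to 1618 CPM. The markers did not all follow the sum. By averages of each number, miR-204-3p, miR-211-3p and miR-200b-3p were highest in number 2 as well. The highest averages of miR-211-5p (7.07 CPM) and miR-200a-3p (3.23 CPM) were in number 3, and miR-141-3p was lowest in number 2 (2.13 CPM). The part of these cells in the family's levels was not tested. Without the block 0 of 7 passed in any comparison. With it miR-204-3p rose in shStau2 against shNTC (log2 fold change 0.75, adjusted p = 0.0255), where 2.39% of all miRNAs rose. With replicate number 3 of the 7 differed, where 26.1% of all miRNAs did.

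The remaining marker lists had 0 calls without the block. Neuron markers also had 0 of 8 with it, and oligodendrocyte markers, led by miR-338-3p and miR-219a-5p, 0 of 4 with sums of 222.7 to 408.3 CPM. With the block, 4 of 5 astrocyte markers fell in shStau2 against shNTC, where 3.82% of all miRNAs fell: miR-21-5p, miR-21-3p, miR-23a-3p and miR-27a-3p. The list was chosen with earlier results of these data known, and miR-21-5p and miR-21-3p come from the same hairpin. The strands miR-23a-3p and miR-27a-3p belong to the same cluster, as does miR-24-3p. The 4 are therefore not independent markers. The most abundant were miR-21-5p, at 1648 ± 305 CPM against 3298 ± 1187 in shNTC, and miR-24-3p, which did not pass and had 2193 ± 40.2 against 2422 ± 147 CPM. The sum of the 5 was 4670 to 6129 CPM for shStau2, 6806 to 9541 for shNTC and 5491 to 7582 for shPum2. In shPum2 against shNTC miR-23a-3p fell too, with a log2 fold change of -0.38 and adjusted p = 0.0179. It was the single call of that comparison.

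The microglia or blood markers had sums of 142.5 to 397.5 CPM, with miR-155-5p and miR-146a-5p as the most abundant. With the block, miR-155-5p fell in shStau2 against shNTC, 1 of 5 tested, where 3.82% of all miRNAs fell. In shStau2 against shPum2 miR-155-5p and miR-142-3p fell with the block, 2 of 5, where 2.39% of all miRNAs fell. The vessel or mesenchyme markers had sums of 508.4 to 788.5 CPM, with miR-126a-3p and miR-199a-3p as the most abundant. Of these miR-126a-5p fell with the block in shStau2 against shNTC, 1 of 6, beside the same 3.82%. Replicate numbers differed for 2 of 8 neuron, 2 of 5 astrocyte, 0 of 4 oligodendrocyte, 4 of 5 microglia or blood and 3 of 6 vessel or mesenchyme markers, where 26.1% of all miRNAs differed. The part of other cell types in the family's differences between groups or numbers was not tested.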

How the data were processed

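Small RNA was sequenced from 12 libraries, 4 for each shRNA. Per the labels' protocols, RNA with an RNA integrity number of 9.5 went into a kit with unique molecular identifiers. The deposited values were raw counts per small RNA name. The submitters' processing notes name the build Rnor 6.0. The aligner, the counter and whether identifiers were collapsed are not given in the sources used here, so the floor covers counting error only. The SDs and SEs reflect the spread between libraries. A floor of 3 counts was 0.558 to 0.788 CPM. The tables also held 120 piRNA names, used in 1 alternative.

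Differences over the 685 miRNA names were fitted by edgeR 4.0.16 (R 4.3.3; TMM, filterByExpr by group, robust quasi-likelihood, two-sided, Benjamini-Hochberg adjustment over the 628 names kept, threshold 0.05). DESeq2 1.42.0 was an alternative. Levels use the same TMM factors; log2 CPM used a prior count of 2. Arm ratios used exact permutation tests. The libraries are called biological replicates, but whether they came from separate preparations is not stated, so p-values measure the spread between these libraries. Same-number libraries of different groups deviated together (r of 0.36 to 0.57 in 12 pairs, above the 0.1 required; -0.41 to 0.14 in the 36 others), so the numbers pair the libraries, a pairing seen in the data and not stated in the labels. Sequences came from RefSeq, GRCr8. The members and lists were chosen with earlier results of these data known. Named miRNAs were all members, the 3 most alike of each member of at least 10 CPM, list members past the threshold in all 12 libraries, and the 2 most abundant of each list. Outside this rule, miR-33-5p was named after its value was seen, as the other of 2 calls, and miR-504 likewise.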

Additional observations from a re-analysis of the deposited data

Results flagged for a closer look

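The arm ratio of miR-34c in shStau2 replicate 1 stood apart from the other 3 libraries of its group. Its log2 ratio of 5p to 3p counts was 3.24, against 3.50 to 3.54 in the others, and the gap was 0.88 of the group's range, above Dixon's 95% critical value for 4 samples. This was 1 of 33 groups examined, and chance flags about 1 in 20.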

How the results depend on the processing

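The 48 member levels under other totals moved by less than 1 SD. A member passed only with the replicate block and without number 2: miR-449a-5p in shPum2 against shNTC (0.68) and in shStau2 against shPum2 (-0.69), and miR-449c-5p in the latter (-1.14). That number holds the pair that went the other way or differed least. Leaving out a single library without the block, the values ran from 0.14 to 0.68 for miR-449a-5p and 0.20 to 0.80 for miR-449c-5p in shPum2 against shNTC. In that comparison they ran from -0.25 to -0.13 for miR-34a-5p and -0.54 to -0.13 for miR-34c-5p. In shStau2 against shPum2 they ran from -0.75 to -0.19 for miR-449a-5p and -1.17 to -0.63 for miR-449c-5p. The replicate block on all 12 libraries called no member. It moved the count of all miRNAs from 2 to 39 in shStau2 against shNTC, from 0 to 1 in shPum2 against shNTC and from 3 to 25 in shStau2 against shPum2. DESeq2 gave 17, 0 and 7. In shStau2 against shPum2 upper-quartile factors and the fit of 8 libraries gave 0. Leaving out a single library gave 1 to 3, 0 and 0 to 4 calls in the same order, with the lowest count of the first without shStau2 replicate 3. With the block and without number 1, 2, 3 or 4 the counts were 23, 23, 27 and 5 in shStau2 against shNTC and 6, 51, 7 and 10 in shStau2 against shPum2. In shPum2 against shNTC the highest was 2, without number 2. The test of the replicate number called 97 to 162 miRNAs and 2 to 6 members when a number was left out, and 106 miRNAs without number 4. The cause was not tested.

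Small log2 differences that were never called changed sign. With library totals only, miR-34b-3p (-0.0049) and miR-449a-3p (-0.032) did in shStau2 against shNTC, and miR-34b-5p (-0.027) in shStau2 against shPum2. With the replicate block miR-449a-5p did in shStau2 against shNTC (0.014). With the block and a number left out, these were miR-449a-3p (-0.10 without 2), miR-449a-5p (0.16 without 3) and miR-34a-5p (0.0073 without 4) in shStau2 against shNTC, and miR-449a-3p (0.044 without 4) in shPum2 against shNTC. In shStau2 against shPum2 they were miR-34b-5p (-0.17 without 1 and -0.12 without 2), miR-34c-5p (-0.041 without 2) and miR-449a-3p (-0.0022 without 4).

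Leaving out a single library, the values in shStau2 against shNTC ran from -0.27 to 0.40 (miR-34b-3p), -0.077 to 0.30 (miR-34c-3p), -0.48 to 0.013 (miR-34c-5p), -0.19 to 0.17 (miR-449a-3p) and -0.39 to 0.29 (miR-449a-5p). In shPum2 against shNTC they ran from -0.34 to 0.26 (miR-34b-3p) and -0.28 to 0.14 (miR-449a-3p). In shStau2 against shPum2 they ran from -0.18 to 0.40 (miR-34b-3p), -0.13 to 0.29 (miR-34b-5p), -0.076 to 0.34 (miR-34c-5p) and -0.12 to 0.30 (miR-449a-3p). Arm ratio differences that changed sign ran from -0.30 to 0.24 (miR-34b, shStau2 against shPum2), -0.24 to 0.067 (miR-34c, shPum2 against shNTC) and -0.25 to 0.23 (miR-449a, shStau2 against shNTC). With labels exchanged within replicate numbers, the miR-34c arm ratio had an exact p = 0.125 in shStau2 against shNTC, the smallest that 4 pairs allow. Counts near the floor limit the strands below 10 CPM.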
